A study of Mus musculus with 12 samples.

Results

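The genes described here are 43 potassium and HCN channel genes of the mouse cortex, chosen by gene symbol and not by any measured value. A gene was taken when GENCODE mouse release M21 gave its Ensembl ID one of the 43 listed symbols, and all 43 were found among the 54232 genes of the count table. All 43 also passed the filter on low counts that left 18016 genes for testing, so no member had to be set aside. They fall into 20 pore-forming subunits of voltage-gated channels (Kcna1 to Kcna6, Kcnb2, Kcnc1, Kcnc2, Kcnc4, Kcnd2, Kcnd3, Kcnq3, Kcnq5, Kcnh1 to Kcnh5 and Kcnh7), 4 modulatory subunits (Kcnf1, Kcng1, Kcns2 and Kcnv1) and 5 cytoplasmic auxiliary subunits (Kcnab1, Kcnab2, Kcnip2, Kcnip3 and Kcnip4). The others are 5 inward rectifiers (Kcnj3, Kcnj4, Kcnj6, Kcnj9 and Kcnj10), 6 channels opened by calcium or sodium (Kcnn1, Kcnn2, Kcnn3, Kcnma1, Kcnt1 and Kcnt2), 2 tandem-pore leak channels (Kcnk1 and Kcnk2) and the HCN channel Hcn2.

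The study measured messenger RNA in the cortex of 12 C57BL/6J mice aged 12 weeks. Of these, 6 were Tbl1xr1Y446C/Y446C mutants (3 females and 3 males), carrying on both copies of Tbl1xr1 an allele named for a tyrosine-to-cysteine change, and 6 were wild type (3 females and 3 males). Tbl1xr1 encodes a WD40-repeat subunit of the NCoR and SMRT corepressor complexes, through which nuclear receptors silence genes. Every library came from 1 animal, the labels give no litter or processing batch, and gene counts cannot read the base change that defines the mutant.

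Potassium channels let potassium leave a neuron and so set its resting potential, the shape of its spikes and how often it fires. Voltage-gated pore subunits assemble in groups and are tuned by modulatory subunits, which form no working pore alone, and by cytoplasmic partners that change gating and traffic. Inward rectifiers hold cells near rest, and some answer to G-protein-coupled receptors; calcium- and sodium-activated channels follow activity within the cell; tandem-pore channels carry leak. HCN channels open on hyperpolarization, pass both sodium and potassium and contribute to pacing and dendritic integration.

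A short stretch of the pore, the selectivity filter, is shared by these families, and it usually reads glycine-tyrosine-glycine or glycine-phenylalanine-glycine, or glycine-leucine-glycine in the second filter of Kcnk1. The coding sequences of 38 of the 43 genes held such a motif, including all 20 voltage-gated pore subunits and all 4 modulatory subunits, and it was found in 0 of the 5 auxiliary subunits, which line no pore. Both tandem-pore genes held it 2 times in 1 coding sequence. The windows below are 51 bases of the sense strand, 5′ to 3′, from GENCODE M21 transcripts on GRCm38, with the 15 bases of the filter motif in capitals. They set members of 1 family side by side, as pairs chosen because they parted in 1 library, female mutant 3, and they include Hcn2 and the first filter of Kcnk2, whose levels are set against markers of other cells.
Kcnh7: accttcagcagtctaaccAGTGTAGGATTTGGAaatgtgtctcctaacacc
Kcnh3: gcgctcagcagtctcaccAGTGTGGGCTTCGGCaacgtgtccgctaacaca
Kcna4: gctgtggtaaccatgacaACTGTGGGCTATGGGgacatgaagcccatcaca
Kcna6: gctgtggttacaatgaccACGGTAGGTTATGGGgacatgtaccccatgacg
Kcnj3: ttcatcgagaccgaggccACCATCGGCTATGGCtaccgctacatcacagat
Kcnj4: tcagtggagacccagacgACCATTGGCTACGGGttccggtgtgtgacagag
Kcnk2: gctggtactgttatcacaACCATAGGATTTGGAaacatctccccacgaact
Hcn2: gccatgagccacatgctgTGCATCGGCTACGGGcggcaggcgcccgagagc

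Depth was 21238427 to 32669138 counts in 11 libraries, with 24346 to 26012 genes detected and mitochondrial genes taking 5.23% to 10.4% of counts. Female mutant 3 stood apart, with 3748515 counts, 17349 genes detected and a mitochondrial share of 31.6%, so the comparisons below are given with it and without it. The 43 genes together took 15980 counts in female mutant 3, which is 0.426% of that library, against 108552 to 164177 counts and 0.481% to 0.559% in the others. The excitatory neuron markers of cortex were present as labelled, all 8 of them tested and none at 0, with summed levels of 2629 to 4037 CPM (counts scaled to library size) in mutants and 3175 to 3810 CPM in wild type. Markers of neighbouring regions were present too: the 12 striatal markers summed to 343.6 to 1495 CPM in mutants and 659 to 2349 CPM in wild type, the 5 choroid plexus markers to 392.1 to 546.7 CPM and 433 to 540.5 CPM, and the 5 thalamic markers to 55.23 to 240.1 CPM and 92.66 to 236 CPM. In whole tissue of this kind, fewer cells of a type and less RNA per cell cannot be told apart.

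In reads per kilobase of exon, scaled to library size (RPKM), the highest levels belonged to Kcnab2, a partner of Shaker-type channels, with 53.4 ± 13.2 RPKM in mutants and 58.0 ± 3.39 RPKM in wild type (SD, n = 6 each). Kcnj10, which takes up potassium into glia, followed with 48.2 ± 9.21 RPKM in mutants and 51.7 ± 7.58 RPKM in wild type. Kcna2, a Shaker-type subunit of axons, had 44.0 ± 11.3 RPKM in mutants and 43.2 ± 3.43 RPKM in wild type. The tandem-pore gene Kcnk1 came next with 35.0 ± 9.27 RPKM in mutants and 36.0 ± 3.51 RPKM in wild type, and Hcn2 with 31.8 ± 7.96 RPKM in mutants and 33.8 ± 3.20 RPKM in wild type. In wild type, Kcnab2 and Kcnj10 differed by less than the spread of Kcnj10, and Kcnk1 and Hcn2 differed by less than the spread of either, while Kcna2 stood apart from both its neighbours by more than its own spread.

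At the low end stood Kcna5, a Shaker-type subunit better known from heart muscle, with 1.17 ± 0.538 RPKM in mutants and 1.47 ± 0.593 RPKM in wild type. The calcium-activated gene Kcnn1 had 2.12 ± 0.497 RPKM in mutants and 2.17 ± 0.370 RPKM in wild type, and Kcnh4, an elk-type voltage-gated subunit, 2.26 ± 0.852 RPKM in mutants and 2.76 ± 0.778 RPKM in wild type. Kcnb2, a delayed rectifier subunit, had 3.84 ± 1.18 RPKM in mutants and 3.40 ± 0.400 RPKM in wild type, and Kcnn2, a small-conductance calcium-activated channel, 4.57 ± 0.629 RPKM in mutants and 4.38 ± 0.407 RPKM in wild type. In wild type, Kcnn1 and Kcnh4, and likewise Kcnh4 and Kcnb2, differed by less than the SD of Kcnh4, whereas Kcna5 stood below Kcnn1 and Kcnn2 above Kcnb2 by more than either SD. Leaving out female mutant 3, the mutant means of these 10 genes lay at 1.35 RPKM for Kcna5 up to 58.8 RPKM for Kcnab2. The remaining 33 genes ranged in wild type from 4.57 RPKM for Kcnn3 to 32.3 RPKM for Kcnj3.

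**Figure D1:**
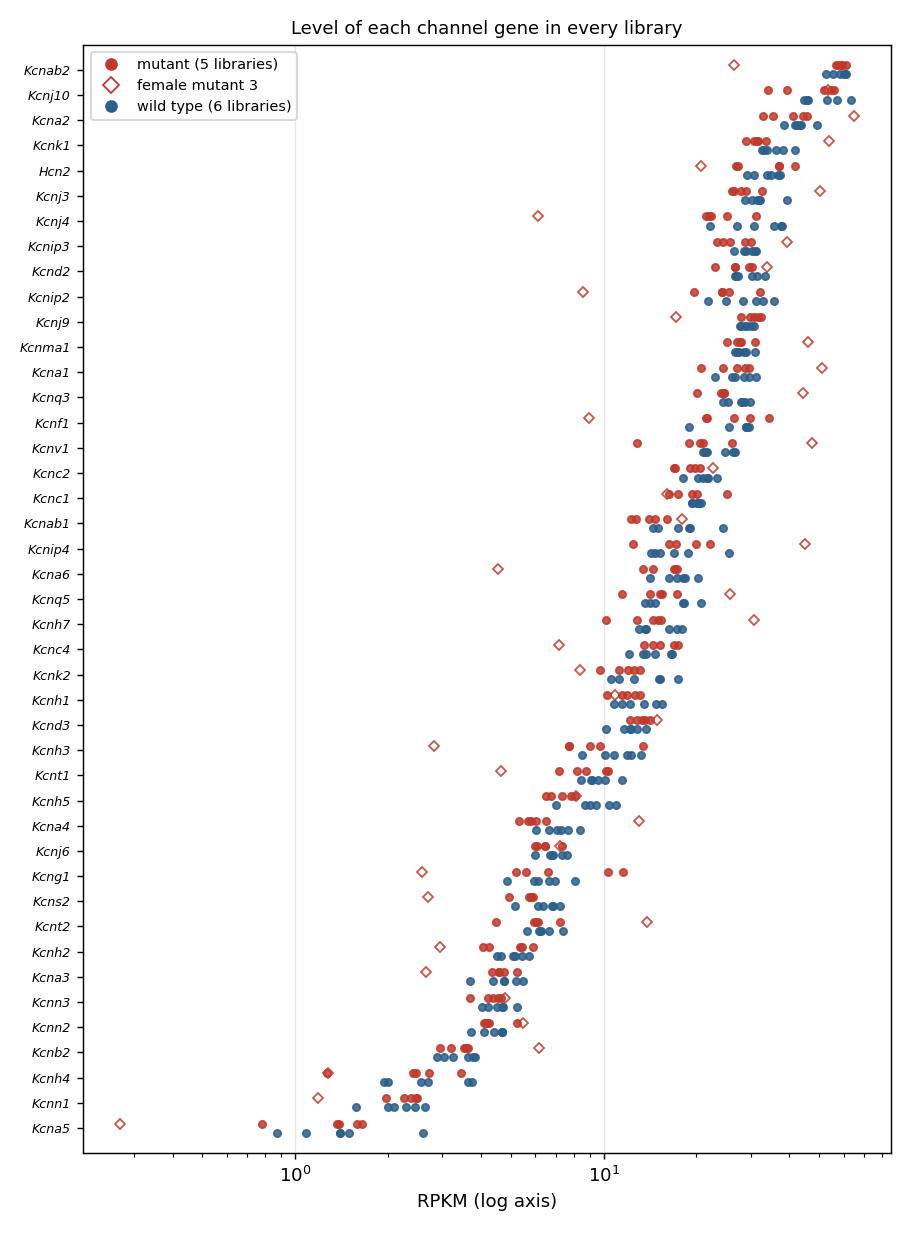
Level of each of the 43 channel genes in every library, in RPKM on a log axis, with genes ordered by their wild-type mean. Mutants are red and wild type blue, and the open diamond is female mutant 3; the diamonds lie outside the other 11 libraries for many genes, at both ends, while the filled points of the genotypes intermix.

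The first comparison asks whether the mutation altered these channel genes in cortex over both sexes. None of the 43 passed the test: edgeR's quasi-likelihood test with Benjamini-Hochberg adjustment over all 18016 genes called 0 members at an adjusted p under 0.05, where 0.00555% of all genes (1 gene) were called. At an unadjusted p under 0.05 there were 3 members, Kcnh5, Kcnab1 and Kcnj4, which is 6.98% of the list beside 3.96% of all genes. DESeq2 also called 0 members, against 0.161% of genes. Fitted values lay below 0 (lower in mutants) for 32 of the 43, or 74.4%, against 52.4% of all genes, and the median log2 difference was −0.07 for the members and −0.01 for all genes. Without female mutant 3 the counts were 0 called (background 0.0108%), 8 at an unadjusted p under 0.05 (18.6% of members, 7.46% of genes) and 33 lower, with a median of −0.12 for members and 0.00 for all genes; DESeq2 called 0 members there too, against 0.287% of genes. The genotypes overlapped for every member: in 0 of 43 were all mutants lower, and in 0 all higher, than every wild type, where 0.294% and 0.144% of genes were, or 0.585% and 0.493% without female mutant 3. Of the 39 other protein-coding Kcn and Hcn genes tested (53 in the table), 24 were lower with a median of −0.07, and without female mutant 3, 23 of 40 were lower with a median of −0.04.

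**Figure D2:**
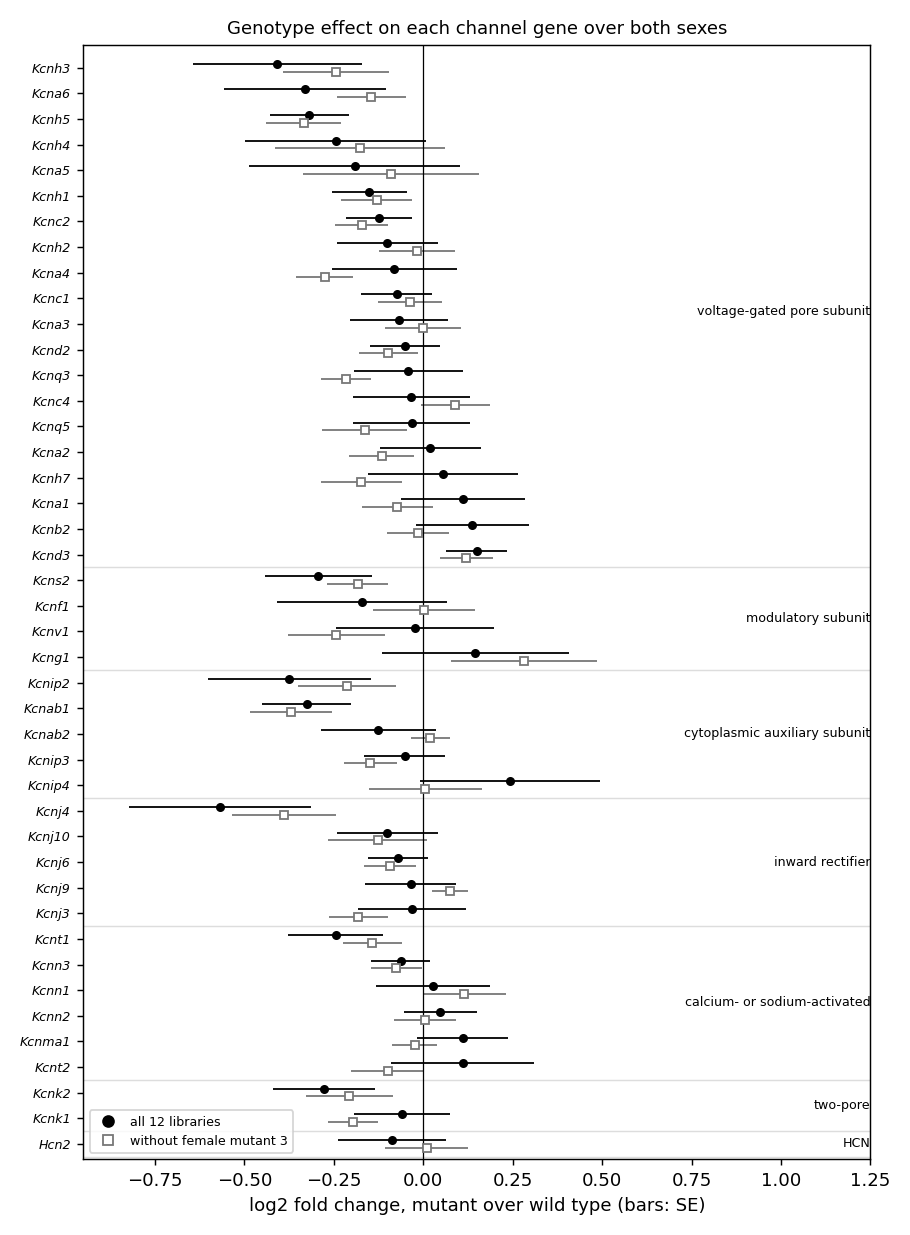
Log2 fold change of each channel gene, mutant over wild type, from the fit over both sexes, with bars of 1 SE and genes grouped by role. Filled circles use all 12 libraries and open squares leave out female mutant 3; most points lie left of 0, none of the 43 passes the threshold, and genes such as Kcnh3, Kcnip4 and Kcna4 shift between circle and square.

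Among the voltage-gated pore subunits, 15 of 20 were lower, with a median log2 difference of −0.07 and a range of −0.41 to 0.15. Kcnh5, an ether-à-go-go subunit (chromosome 12, 74897220 to 75177332, minus strand, GRCm38), had a lowest, median and highest level of 26.5, 30.8 and 32.9 CPM in mutants and 28.4, 37.4 and 44.5 CPM in wild type. Of the wild types, 5 lay above every mutant and male wild type 13 lay among the mutants. The log2 difference was −0.32 ± 0.11 (SE), with an unadjusted p of 0.0127 and an adjusted p of 0.950 by edgeR's quasi-likelihood test, and −0.33 with an adjusted p of 0.488 without female mutant 3. Kcnh3, an elk-type subunit that limits excitability of forebrain neurons in mice, had 16.3, 48.2 and 77.3 CPM in mutants and 48.8, 65.6 and 76.2 CPM in wild type. Its lowest and its highest library were both mutants, female mutant 3 and male mutant 27, and the log2 difference of −0.41 ± 0.24 became −0.24 without female mutant 3.

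Kcnd3, an A-type subunit that opens below spike threshold, was the voltage-gated gene with the highest fitted value, at 116.4, 128.8 and 142.9 CPM in mutants and 97.6, 117.3 and 131.5 CPM in wild type. The ranges overlapped between 116.4 and 131.5 CPM, with a log2 difference of 0.15 ± 0.09 and 0.12 without female mutant 3. Kcnb2 was also above 0 with all libraries, as was Kcna1, a Shaker-type subunit of axons whose loss causes seizures in mice. Kcnb2 had 44.7, 53.7 and 93.7 CPM in mutants and 43.8, 52.2 and 58.0 CPM in wild type, and a log2 difference of 0.14 ± 0.16. Kcna1 had 98.6, 133.1 and 244.3 CPM in mutants and 109.6, 132.2 and 148.8 CPM in wild type, and a log2 difference of 0.11 ± 0.17. In both genes the highest library was female mutant 3, and without it the differences were −0.02 and −0.07. With female mutant 3 left out, 18 of the 20 lay below 0. The smallest p values among them in edgeR's quasi-likelihood test were those of Kcna4, Kcnh5 and Kcnq3, with log2 differences of −0.28, −0.33 and −0.22 and adjusted p values of 0.463, 0.488 and 0.495.

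Of the 4 modulatory subunits, 3 were lower, and 2 of 4 without female mutant 3. Kcns2, which joins delayed rectifier channels and has no current of its own, had 15.1, 32.2 and 33.1 CPM in mutants and 28.9, 36.8 and 40.4 CPM in wild type. All mutants lay under the wild-type median, and female mutant 3 lay far under the other mutants. The log2 difference was −0.29 ± 0.15 and became −0.18 without female mutant 3, with an adjusted p of 0.669. Kcng1, another silent partner of these channels, had 11.6, 27.4 and 52.1 CPM in mutants and 22.0, 28.9 and 36.3 CPM in wild type. Mutants held both ends of its range: female mutant 3 was lowest, and male mutant 27 and female mutant 6, at 52.1 and 46.4 CPM, were above all other libraries. Its log2 difference of 0.15 ± 0.26 became 0.28 without female mutant 3, −0.09 without female mutant 6 and −0.04 without male mutant 27.

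Of the 5 cytoplasmic auxiliary subunits, 4 were lower, and 3 of 5 without female mutant 3. Kcnab1, which speeds inactivation of Shaker-type channels, had 105.6, 123.2 and 153.7 CPM in mutants and 124.5, 156.2 and 209.0 CPM in wild type. Of the 6 mutants, 3 lay below every wild type, and the highest mutant was female mutant 3. The log2 difference was −0.33 ± 0.12, with an unadjusted p of 0.0216 and an adjusted p of 0.950 by edgeR's quasi-likelihood test, and −0.37 with an adjusted p of 0.488 without female mutant 3. Kcnip2, a calcium-binding partner of A-type channels, had 29.8, 83.9 and 111.7 CPM in mutants and 76.0, 103.6 and 124.0 CPM in wild type, and its log2 difference of −0.37 ± 0.23 became −0.21 without female mutant 3. Kcnip4, of the same family, had 45.1, 67.3 and 162.6 CPM in mutants and 51.6, 58.3 and 92.4 CPM in wild type. Its top library was female mutant 3, and its log2 difference of 0.24 ± 0.25 became 0.01 without it.

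All 5 inward rectifiers had values below 0, from −0.57 to −0.03, and 4 of 5 did without female mutant 3. The lowest was Kcnj4, a strong rectifier of forebrain neurons (chromosome 15, 79483714 to 79505241, minus strand), with 13.2, 47.5 and 67.2 CPM in mutants and 47.5, 71.6 and 81.7 CPM in wild type. Female mutant 3 lay far below all others, and 4 of the 5 other mutants lay at or below 54.1 CPM, a level that 5 of 6 wild types passed. The log2 difference was −0.57 ± 0.26, with an unadjusted p of 0.0449 and an adjusted p of 0.950 by edgeR's quasi-likelihood test, and −0.39 with an adjusted p of 0.560 without female mutant 3. The G-protein-gated subunits differed less: Kcnj6 had a log2 difference of −0.07, Kcnj9 of −0.04 and Kcnj3 of −0.03, and without female mutant 3 these were −0.09, 0.07 and −0.18. Kcnj10 had a log2 difference of −0.10, and −0.13 without female mutant 3.

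The channels opened by calcium or sodium had more values above 0 than below, 4 of 6, and without female mutant 3 there were 2 of 6. Kcnt1, a sodium-activated channel, had 44.1, 80.5 and 97.8 CPM in mutants and 80.3, 89.4 and 109.0 CPM in wild type, with a log2 difference of −0.24 ± 0.13 that became −0.14. Its relative Kcnt2 had 30.8, 41.9 and 95.3 CPM in mutants and 38.9, 43.0 and 51.0 CPM in wild type, and the log2 difference of 0.11 ± 0.20 became −0.10. Kcnma1, the large-conductance calcium- and voltage-gated channel, had 425.5, 471.3 and 782.9 CPM in mutants and 451.0, 476.2 and 523.6 CPM in wild type, and the log2 difference of 0.11 ± 0.13 became −0.02. Female mutant 3 was the highest library for both Kcnt2 and Kcnma1. Kcnn2 had 30.5, 31.5 and 41.0 CPM in mutants and 27.7, 34.0 and 35.1 CPM in wild type, with a log2 difference of 0.05 ± 0.10 that became 0.01.

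Of the tandem-pore genes, Kcnk2, a leak channel opened by stretch and lipids (chromosome 1, 189207930 to 189402273, minus strand), had 41.4, 57.4 and 64.7 CPM in mutants and 52.3, 68.4 and 85.8 CPM in wild type. Of the wild types, 3 lay above every mutant and the other 3 lay among them. The log2 difference of −0.28 ± 0.14 became −0.21 without female mutant 3, with an adjusted p of 0.751 by edgeR's quasi-likelihood test. Kcnk1 had a log2 difference of −0.06, and −0.20 without female mutant 3. Hcn2 had 66.2, 102.7 and 133.1 CPM in mutants and 93.2, 109.8 and 118.9 CPM in wild type, with mutants at both ends, and its log2 difference of −0.09 ± 0.15 became 0.01. Exons of 16 members overlap an annotated gene on the opposite strand, by 2355 bases in Kcna6 and 604 bases in Kcnk2 among others, and without a stated strand setting reads of the partners cannot be told apart.

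Within females, 0 of 43 members were called, as were 0% of all genes, and 6 had an unadjusted p under 0.05 beside 11.8% of genes; DESeq2 called 0 members and 0% of genes. Values lay below 0 for 24 of 43 (55.8%), beside 53.5% of all genes. Of the other Kcn and Hcn genes, 24 of 39 (61.5%) lay below 0 in females, and 25 of 40 (62.5%) without female mutant 3. All 3 female mutants lay below all 3 female wild types for 6 members, beside 12.4% of all genes, and above them for 1, beside 10.1%; without female mutant 3 these were 9 members (15.7% of genes) and 1 (14.1%). Kcnj4 had 46.4, 13.2 and 47.9 CPM in female mutants 1, 3 and 6, against 58.4, 76.8 and 81.7 CPM in female wild types 2, 4 and 5, a log2 difference of −0.93 ± 0.34 (adjusted p = 0.418, edgeR). Every female mutant lay below every female wild type, and without female mutant 3 the difference was −0.62. Kcns2 had 32.04, 15.1 and 27.6 CPM against 34.2, 40.4 and 38.0 CPM, and Kcnt1 had 77.6, 44.1 and 68.3 CPM against 80.3, 96.1 and 87.4 CPM, in the same order of female mutants and female wild types. Those differences were −0.52 and −0.45, and −0.33 and −0.27 without female mutant 3.

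The 3 female values furthest above 0 by p shrank without female mutant 3. Kcnip4 had 80.2, 162.6 and 72.4 CPM in the female mutants against 61.4, 53.4 and 68.1 CPM in the female wild types (log2 0.75, and 0.32 without female mutant 3). Its other female mutants still lay above every female wild type, as in 14.1% of all genes. Kcnma1 (log2 0.34) and Kcnb2 (log2 0.41) became 0.10 and 0.13. Without female mutant 3, females had 0 members called (background 0%), 5 at an unadjusted p under 0.05 (9.41% of genes) and 33 of 43 (76.7%) below 0, beside 51.9% of all genes; DESeq2 called 0 members, against 0.0813% of genes.

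Within males, 0 members were called beside 0% of genes, 3 had an unadjusted p under 0.05 beside 2.78% of genes, and DESeq2 called 0 members beside 0.0222% of genes. Values lay below 0 for 31 of 43 members (72.1%), beside 49.0% of all genes, and for 31 (beside 48.9%) without female mutant 3 in the fit. The other Kcn and Hcn genes did not share this lean in males. Of them 19 of 39 (48.7%) lay below 0, and 19 of 40 (47.5%) without female mutant 3. All 3 male mutants lay below all 3 male wild types for 5 members, beside 6.62% of all genes, and above them for 1, beside 6.88%. Kcnj6, a G-protein-gated rectifier subunit, had 46.3, 45.8 and 49.4 CPM in male mutants 7, 10 and 27, against 52.0, 58.2 and 55.9 CPM in male wild types 8, 12 and 13, so that the males did not overlap (log2 −0.23 ± 0.10). Kcnab1 had 125.7, 105.6 and 109.5 CPM in male mutants against 162.3, 163.5 and 124.5 CPM in male wild types (log2 −0.40 ± 0.18). Kcnh5 had 32.9, 26.5 and 27.3 CPM against 38.2, 44.5 and 28.4 CPM in the same order (log2 −0.36 ± 0.16), and in both genes male wild type 13 lay within the range of male mutants. Above 0, Kcnn1 had 11.4, 10.4 and 10.9 CPM in male mutants against 7.23, 9.19 and 9.59 CPM in male wild types, without overlap (log2 0.33 ± 0.19). Kcnc4, a fast high-threshold subunit, had a log2 difference of 0.21 and Kcng1 of 0.25, which was −0.12 without male mutant 27. The adjusted p of each was 1 in edgeR's quasi-likelihood test. A shared spread was estimated over all groups, and leaving out female mutant 3 from that fit gave adjusted p values of 0.536 to 0.790 for these 6 genes, with 0 members called (background 0.00542%), 7 at an unadjusted p under 0.05 (8.43% of genes) and 0 by DESeq2 (0.0867% of genes).

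The difference of the genotype effect between the sexes, females minus males, was tested itself. No member was called (0 of 43, background 0%), 5 had an unadjusted p under 0.05 (7.67% of genes), and DESeq2 called 0 members (0.0222% of genes). The values were positive for Kcnip4 (log2 1.01), Kcnv1 (0.89), a silent subunit that joins delayed rectifiers, and Kcnn2 (0.40), and negative for Kcnn1 (−0.61), Kcna6 (−0.76), a Shaker-type subunit, and Kcnh2 (−0.45), an erg-type subunit best known from heart repolarization. For all 6 the adjusted p was 0.555 in edgeR's quasi-likelihood test. Kcnv1 had 96.5, 216.8 and 119.9 CPM in female mutants against 96.4, 99.3 and 122.5 CPM in female wild types, and 86.8, 58.9 and 94.4 CPM in male mutants against 113.6, 120.8 and 97.5 CPM in male wild types. Its male mutants lay below all male wild types, while the female groups overlapped. In the fit without female mutant 3 the 6 values were 0.58, 0.50, 0.34, −0.47, −0.44 and −0.31 in the order given, with 0 members called (background 0%), 4 at an unadjusted p under 0.05 (10.6% of genes) and 0 by DESeq2 (0.0217% of genes).

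Females and males, over both genotypes, differed in 0 of 43 members (background 0.0389%); 1 member had an unadjusted p under 0.05 (1.77% of genes), and DESeq2 called 0 (0.0666% of genes). That member was Kcnt1, lower in females by a log2 value of −0.32 ± 0.13 (unadjusted p = 0.0319, adjusted p = 0.897, edgeR), and −0.22 without female mutant 3. Its levels were 77.6, 44.1, 68.3, 80.3, 96.1 and 87.4 CPM in females and 83.3, 97.8, 97.0, 91.3, 109.0 and 86.5 CPM in males. The fitted values of Kcnc1 (−0.14) and Kcnh3 (−0.25) were lower in females, and those of Kcnv1 (0.38), Kcna4 (0.29) and Kcnab1 (0.19) were higher. Without female mutant 3 these were −0.10, −0.08, 0.17, 0.10 and 0.15, with 0 members called (background 0.0433%), 1 at an unadjusted p under 0.05 (2.67% of genes) and 0 by DESeq2 (0.0704% of genes).

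Levels in female mutant 3 differed from those of the other mutants along with base composition. Set against the mean of the 5 other mutants on the log2 CPM scale, 13 members (30.2%, beside 24.0% of all genes) were more than 1.5-fold above and 17 (39.5%, beside 38.3%) more than 1.5-fold below. The share of G and C in the longest transcript had a median of 44.4% (36.6% to 51.8%) in those above and 57.6% (48.2% to 65.4%) in those below. Across the 43 genes of this 1 library, the difference and the GC share had a Pearson r of −0.77 and a Spearman rho of −0.77. Across all tested genes these were −0.47 and −0.52. With the length of the longest transcript, Spearman rho was 0.35 across members and 0.14 across all tested genes. The genes share the library and are not independent.

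Members of 1 family parted in this library in some cases and moved in the same direction in others, and the pairs named were chosen after their values were seen. Kcnh7, an erg-type subunit with 39.6% GC, was 1.199 above the other mutants on the log2 scale, and Kcnh3, with 61.2% GC, was at −1.72. Kcna4 (44.8% GC) was at 1.15 and Kcna6 (53.3% GC) at −1.78, and Kcnj3 (43.9% GC) at 0.83 and Kcnj4 (59.3% GC) at −1.98. Relatives that moved in the same direction were Kcnq3 (0.92, 44.4% GC) and Kcnq5 (0.82, 47.7% GC). So did Kcnd2 (0.32, 44.4% GC) and Kcnd3 (0.18, 49.1% GC), and Kcnn2 (0.33, 54.4% GC) and Kcnn3 (0.16, 45.0% GC), all by less than 1.5-fold. Their relative Kcnn1 (57.0% GC) was at −0.95. Within the filter windows printed above, Kcnh7 and Kcnh3 had 45.1% and 60.8% G and C, while Kcna4 and Kcna6 both had 52.9%. The furthest above was Kcnip4, at 1.38 and 40.1% GC, and the furthest below was Kcna5, at −2.16 and 54.3% GC with 2 reads, fewer than the 3 counts used as a detection floor. The part that base composition, transcript length, depth and the mitochondrial share each had in these values was not tested.

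**Figure D3:**
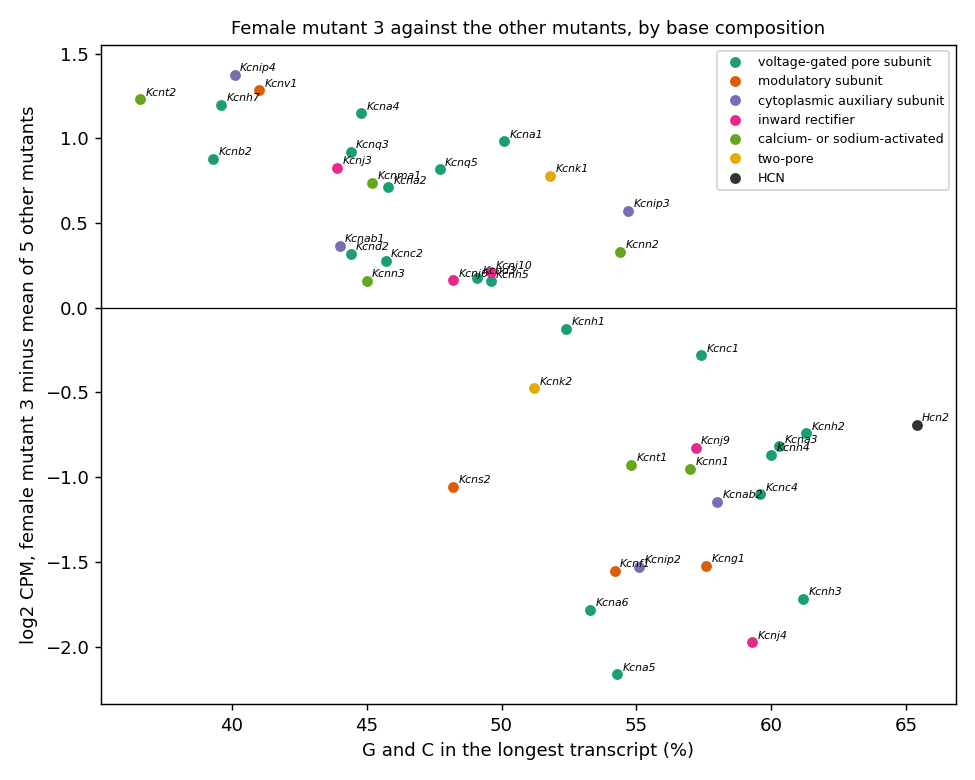
Log2 CPM of each channel gene in female mutant 3 minus the mean of the 5 other mutants (vertical axis), against the percentage of G and C in its longest transcript (horizontal axis), coloured by role. Points descend from left to right with a Pearson r of −0.77 over 43 genes, and exceptions include Kcns2 (48.2% GC, −1.055) below 0 and Kcnip3 (54.7% GC, 0.57) and Kcnn2 (54.4% GC, 0.33) above it.

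Because striatal markers varied widely over the libraries, the mean log2 CPM of the 12 markers was entered as a term beside sex and genotype, and the slope says how much a gene moves per log2 unit of that mean. With all 12 libraries 0 members were called (background 0.161%), 8 had an unadjusted p under 0.05 (18.6% of members, 4.10% of genes), and DESeq2 called 2, Kcnab1 and Kcnh4 (0.716% of genes). Without female mutant 3, edgeR's quasi-likelihood test called 4 members, where 0.601% of genes were called: Kcnab1, Kcna5, Kcnh4 and Kcnk2, all rising with the striatal markers. With these 4 counted in, 13 members had an unadjusted p under 0.05 (7.74% of genes), and DESeq2 called 8 (1.38% of genes). The marker lists were chosen with the spread of striatal marker levels over these libraries already known.

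Kcnab1 was lowest, at 105.6 CPM, in male mutant 10, which had the lowest striatal marker mean, and highest, at 209.0 CPM, in female wild type 5, which had the highest. Its slope was 0.31 ± 0.05 (adjusted p = 0.0197, edgeR) without female mutant 3 and 0.32 (adjusted p = 0.177) with it. Kcna5 had 2.24 CPM and 7.40 CPM in those 2 libraries, and a slope of 0.67 ± 0.12 (adjusted p = 0.0278), or 0.61 (adjusted p = 0.844) with female mutant 3. Kcnh4 had 5.02 CPM in male mutant 10 and 14.3 CPM in female wild type 5, under the 14.8 CPM of male wild type 12, and a slope of 0.65 ± 0.12 (adjusted p = 0.0319), or 0.60 (adjusted p = 0.490). Kcnk2 had 48.0 CPM and 85.8 CPM, and a slope of 0.32 ± 0.06 (adjusted p = 0.0395), or 0.28 (adjusted p = 0.995).

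The 4 calls depended on which libraries were in. When 1 more library was left out in turn, all 11 fits kept the sign of every slope, and Kcnab1 was called in 6, Kcna5 in 7, Kcnh4 in 4 and Kcnk2 in 5 of them. No member was called without female wild type 2, without female wild type 5 or without male mutant 7, only Kcnab1 without male mutant 10, only Kcna5 without male wild type 12 or 13, and 3 without female wild type 4, which ended the call of Kcnh4. Without female mutant 6 there were 7, adding Kcnq5, Kcnh7 and Kcnv1. The number of all genes called for this slope also varied with the libraries: 111 without female mutant 3 alone and 21 without female mutant 6 alone. The share of all genes called in each of the 11 fits is not reported here. By the rule for named genes Kcnq5, a subunit of M-type channels, had a slope of 0.36 (adjusted p = 0.677) with all libraries, and Kcnc4, Kcnd3 and Kcnc1 had negative slopes of −0.25, −0.13 and −0.09 (adjusted p = 0.995 each, edgeR); the slope of Kcnc1 was 0.04 without male mutant 10.

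Striatal marker levels were also unequal between the genotypes, with a median sum of 772.7 CPM in mutants and 1321 CPM in wild type. With the striatal term in the fit, 21 of 43 members lay below 0 for genotype, against 32 without it, and the median was 0.00; without female mutant 3, 27 lay below 0 with a median of −0.06. The log2 difference was then −0.09 for Kcnab1 (−0.12 without female mutant 3), −0.15 for Kcnh5 (−0.15), −0.51 for Kcnj4 (−0.26) and −0.07 for Kcnk2 (0.05). Over all genes the median was −0.02 with the striatal term and −0.01 without it. With the term and without female mutant 3 the all-gene median was −0.004. Because the markers were unequal between the genotypes, genotype and the striatal term cannot be fully told apart in this fit. The source of the striatal marker RNA was not tested.

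**Figure D4:**
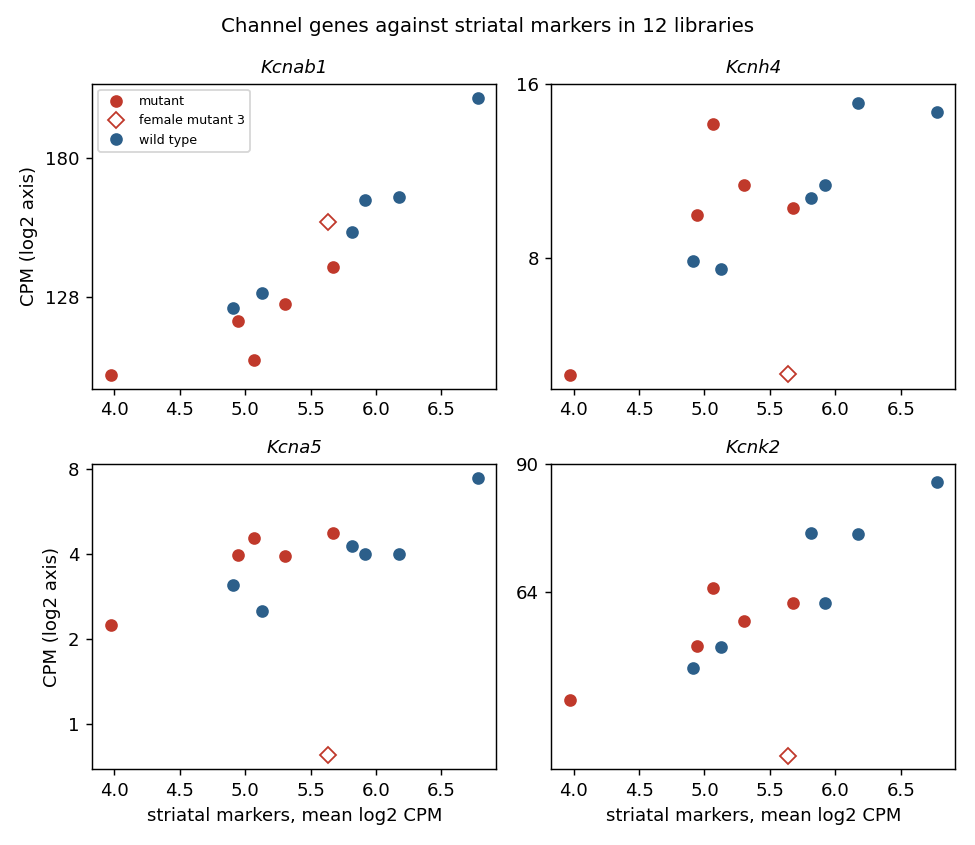
Level of Kcnab1, Kcnh4, Kcna5 and Kcnk2 (CPM, log2 axis) against the mean log2 CPM of 12 striatal markers in each of 12 libraries, mutants red, wild type blue, female mutant 3 as an open diamond. Among the filled points the levels climb with the markers from male mutant 10 at the left to female wild type 5 at the right. Female mutant 3 is the lowest library for Kcna5 and Kcnk2, and lies within the range of the others for Kcnab1. For Kcnh4 it is about as low as male mutant 10 (5.03 and 5.02 CPM), but at a marker mean of 5.635 against 3.97.

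The same fit was run with each of 9 other marker lists, chosen after the data were seen, and p values were not adjusted over the 10 lists. With the mean of the 6 oligodendrocyte markers, 2 members were called over all 12 libraries (background 0.333%): Hcn2, with a slope of 1.03 (adjusted p = 0.0137, edgeR), and Kcnh2, with a slope of 0.94 (adjusted p = 0.0381). Leaving out female mutant 3 gave 5 (background 1.11%). They were Hcn2 (slope 0.99 ± 0.13, adjusted p = 0.0083), Kcnh2 (0.83 ± 0.15, adjusted p = 0.0230), Kcnj10 (1.09 ± 0.20, adjusted p = 0.0240), Kcna2 (0.68 ± 0.14, adjusted p = 0.0455) and, in the opposite direction, Kcng1 (−1.71 ± 0.22, adjusted p = 0.0083).

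Hcn2 had its highest level, 133.1 CPM, in male mutant 10, which also had the highest oligodendrocyte marker mean, and apart from female mutant 3 its lowest levels, 85.8 and 87.4 CPM, in male mutant 27 and female mutant 6, which had the lowest means. Kcnj10 was lowest in the same pair, at 183.8 and 212.5 CPM, and Kcng1 highest. With either male mutant 27 or female mutant 6 left out as well, 0 members were called, and Hcn2 and Kcng1 were each called in the 9 other fits, Kcnh2 and Kcnj10 in 5 and Kcna2 in 2. The share of all genes called in each of these fits is not reported here, so the counts are not set against all genes. Oligodendrocyte markers, none at 0, summed to 4863 to 7769 CPM with a median of 6880 CPM in mutants and to 5426 to 6515 CPM with a median of 6216 CPM in wild type. The mean log2 CPM used in the fit had the opposite order, with medians of 8.999 in mutants and 9.066 in wild type. Without female mutant 3 the mutant median was 9.211.

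**Figure D5:**
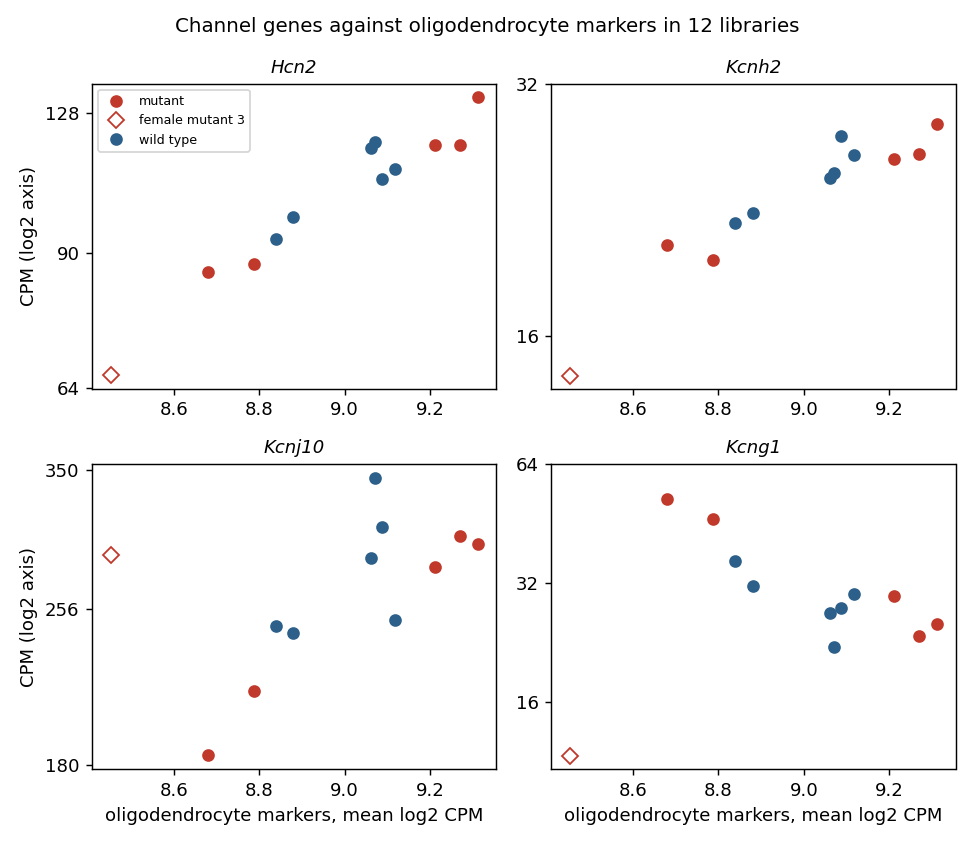
Level of Hcn2, Kcnh2, Kcnj10 and Kcng1 (CPM, log2 axis) against the mean log2 CPM of 6 oligodendrocyte markers in each of 12 libraries, mutants red, wild type blue, female mutant 3 as an open diamond. Among the 11 filled points Hcn2, Kcnh2 and Kcnj10 climb and Kcng1 descends, with male mutant 27 and female mutant 6 at the left end; female mutant 3 lies near the line of Hcn2 and Kcnh2 and far from that of Kcnj10 and Kcng1.

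Other lists gave calls that moved with the libraries used. With the excitatory neuron markers 0 members were called over all 12 libraries (background 0.0333%) and 2 without female mutant 3 (background 1.22%), Kcnv1 with a slope of 1.67 and Kcnh2 with −1.19. With the astrocyte markers 3 were called over all 12 (Kcnq3, Kcnh7 and Kcnv1, all with negative slopes, background 0.389%) and 3 others without female mutant 3 (Kcnh4 with a slope of −4.90, Kcnh1 with −1.88 and Kcnk2 with −2.19, background 0.488%). With the thalamic markers there were 0 (background 0.117%) and 4 without female mutant 3 (background 1.49%), Kcnj10 with a slope of 0.34 and Kcnh3, Kcnf1 and Kcng1 with −0.34, −0.33 and −0.47. The microglial markers gave 27 members over all 12 libraries, where 41.1% of all genes were called, and 0 without female mutant 3 (background 0%). Inhibitory neuron, hippocampal and choroid plexus markers gave 0 members beside 0% of genes in both settings, and endothelial markers 0 beside 0.00555% and 0%. Some lists shared extreme libraries. Male mutant 27 was low in thalamic (3.352) and oligodendrocyte (8.68) means, and Kcnj10 and Kcng1 were called with both lists. Male mutant 10 was highest in the astrocyte mean (7.985) and lowest in the striatal mean (3.97), and Kcnh4 and Kcnk2 were called with both. Each list was entered alone, so slopes on such lists cannot be told apart.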

How the data were processed

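Whole-cortex messenger RNA was sequenced from 12 mice, and the authors deposited raw counts of reads per Ensembl gene for each library. Per the submitters' processing notes, Trimmomatic 0.36, HISAT2 2.1.0, HTSeq 0.11, Cufflinks and the build GRCm38.p6 were used; no source used here states the annotation release or the strand setting. GENCODE M21 gave symbols to 54165 of 54232 IDs; 67 IDs without one took no more than 0.0297% of counts in any library. Genes were kept with edgeR's filterByExpr over the 4 groups, and levels are CPM scaled by TMM, or RPKM over merged exons. Effects were tested across all kept genes with edgeR 4.0.16 in R 4.3.3, by the quasi-likelihood test with Benjamini-Hochberg adjustment, calling at 0.05; sex and genotype were the terms, or 1 mean for each of 4 groups where the sexes were taken apart. DESeq2 1.42.0, limma 3.58.1 (voom), other filters and scalings, and leaving out each library were alternatives. The scripts were tested on simulated data. Depths per library limit precision, and detection floors of 3 counts cover counting error only.

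Named members are the 8 with the smallest p in each direction for genotype over both sexes, the 3 in each direction and all called elsewhere, and the 5 highest and lowest in wild type; genes named beyond these were chosen after their values were seen. The members and lists were chosen with earlier results of these data known.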

Additional observations from a re-analysis of the deposited data

Results flagged for a closer look

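In groups of 6 libraries of 1 genotype, the gap between an extreme library and its nearest neighbour, divided by the range of the group, was compared with Dixon's 95% critical value of 0.625. Of the 86 groups (43 genes in 2 genotypes), 17 passed it; chance flags about 1 in 20 groups. Female mutant 3 was the extreme library in 15 of them, all among mutants. It was the highest in 10: Kcna4 (gap over range 0.842), Kcnq3 (0.814), Kcnk1 (0.808), Kcnb2 (0.791), Kcnh7 (0.752), Kcnj3 (0.728), Kcnma1 (0.718), Kcnt2 (0.706), Kcna1 (0.704) and Kcnip4 (0.701). It was the lowest in 5: Kcnab2 (0.877), Kcnj9 (0.712), Kcna6 (0.701), Kcns2 (0.699) and Kcna3 (0.660). Kcnab2 was at 147.9 CPM in female mutant 3 and at 316.5 to 340.2 CPM in the other mutants. The same comparison was not run over all tested genes, so the flags are not shown to be particular to channel genes. Set against the mean of the other mutants, female mutant 3 was more than 1.5-fold above in 24.0% of all tested genes. In 38.3% of them it was more than 1.5-fold below.

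In wild type, Kcna5 stood out in female wild type 5 (0.639), at 7.40 CPM, the library with the highest striatal marker mean. Kcnj3 stood out in male wild type 8 (0.688), at 204.9 CPM.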

How the results depend on the processing

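No paired analysis was possible because the labels give no litter or other link between a mutant and a wild type. No member was called for genotype over both sexes, within either sex, between the sexes or for their difference under any alternative run. Scaling by library totals shifted all genes: over both sexes the member median was −0.16 (all genes −0.08), in females −0.31 (−0.21), for the sex difference of the effect −0.22 (−0.24), against −0.0304 with limma's library weights, and for sex −0.0541 (−0.11), with 28 members below 0. For genotype over both sexes 21 members lay below 0 with the striatal term. Several named genotype effects changed sign, among them Kcnk2 (−0.28) and, in males, Kcng1 (0.25). With library totals these were Kcnma1 −0.0067, Kcna1 −0.0079, Kcnt2 −0.0054 and Kcnn2 −0.0394; with voom Kcnt2 −0.0064; with library weights Kcnma1 −0.0117, Kcnt2 −0.0603, Kcnn2 −0.0276 and, in males, Kcng1 −0.0052; with the striatal term Kcnn2 −0.0067. Without female mutant 3, DESeq2 gave Kcnb2 −0.0133, Kcnma1 −0.0223, Kcna1 −0.0711 and Kcnt2 −0.0973, library weights Kcnma1 −0.0231, Kcnt2 −0.068 and Kcnn2 −0.0339, and the striatal term Kcnk2 0.0465, Kcnb2 −0.0707, Kcnma1 −0.0112, Kcna1 −0.0012 and Kcnn2 −0.079. The cause was not tested.

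Leaving out 1 library at a time, values ranged from −0.0721 to 0.20 for Kcna1, −0.015 to 0.20 for Kcnb2, −0.0924 to 0.28 for Kcng1, −0.0241 to 0.16 for Kcnma1, −0.0042 to 0.0777 for Kcnn2 and −0.0992 to 0.22 for Kcnt2 over both sexes. In males they ranged from −0.12 to 0.46 for Kcng1 and −0.18 to −0.0446 for the median; for the sex difference the median ranged from −0.0519 to 0.13. The striatal slope of Kcnc1 ranged from −0.14 to 0.0403, and 0 to 4 members were called for that term, beside 13 to 111 of all genes. With all 12 libraries DESeq2 called 2 members beside 129 of all genes, and library weights called 10 beside 572. Kcna5 with 2 reads and Kcnh4 with 13 in female mutant 3 carry wide counting error.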
